A study of Daphnia magna with 20 samples.

Results

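The lower of a pair of exposures to an ethylene acrylic acid copolymer was compared with its vehicle control in whole Daphnia magna, the water flea. The comparison took every library of the nano_low group (polymer at 2.3e11 particles per litre) and every library of the control group (vehicle alone), 10 of the 20 libraries in the series, 5 on each side. In the full study nano_low stands beside a higher polymer exposure, nano_high (2.3e12 particles per litre), and fumed silica, silica (2.3e12, with no unit in the labels), with 5 libraries each. All 4 groups went through the same 21-day static-renewal test, with 15 vessels of 1 daphnid at each level, and RNA came from daphnids pooled by sample. The labels tell neither how many animals entered a pool, nor whether the samples of 1 group had separate cultures, nor which libraries shared a sequencing pool of 8. P-values therefore measure only the spread between these samples, which may be technical. As for age, the stage label describes newborn animals and the protocol runs to day 21, which leaves the age at sampling unsettled.

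Daphnia magna is a filter-feeding crustacean that takes in particles suspended in the water with its algal food, moults its chitin and protein cuticle throughout life and makes yolk-rich broods between moults. Ribosomes, which translate messenger RNA into protein, are built from a small (40S) and a large (60S) subunit, each holding ribosomal RNA and a set of ribosomal proteins made in near-equal numbers. Metallothioneins and zinc exporters keep free metal ions low inside cells, and ferritin stores iron.

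Each library is summarised in CPM, the estimated count of a name per 1000000 of its scaled library total. The names are the protein descriptions of the deposited table, which may join gene copies under 1 description, so that a value for a family member is uncertain as to the gene. Some names carry an added tag (arp2_g and a number), kept here as written. Library totals ran from 9689064 to 40227246 counts in nano_low and from 11918440 to 26562258 in control, and 1 name, a copper-zinc superoxide dismutase, made up 6.906% to 19.26% of a nano_low library and 5.497% to 16.4% of a control library. On the first principal component of log2 CPM, which held 38.94% of the variance, nano_low 1 lay at -55.13 and the other nano_low libraries between -8.79 and 33.59, while control 4 and 5 lay at -53.97 and -55.19 and control 1 to 3 between -12.25 and 16.98. Nano_low 1 thus stood with control 4 and 5 and apart from its own group. Nano_high 4 and 5 lay toward the same end, at -53.21 and -33.61, so that end held exposed and control libraries alike. Names of cuticle, muscle, yolk, eye and gut were all measured, as a whole animal would give.

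Of 7564 names tested, 47 passed an adjusted p of 0.05 in nano_low against control (0.621%), 40 of them lower (0.529%) and 7 higher (0.0925%). Leaving out 1 library moved the count of 47 to between 8 (without control 4) and 236 (without nano_low 1, 171 lower and 65 higher), and fitting only these groups gave 3. Such names are referred to as called, and rose or fell is used of them alone. By role, the 40 that fell were 17 cytosolic ribosomal proteins, 3 other names of the translation machinery, 3 of RNA handling, 2 nucleotide enzymes, 2 metal-handling names, 3 of signalling, 4 of cilia, spindle and small GTPases, and 6 others. The 7 that rose were 2 RNA-binding names, 3 of signalling and transcription, an ion pump subunit and an enzyme of leucine breakdown. These roles were assigned by hand to the called names. Most changes were small. The log2 fold changes of the names that fell lay between -1.78 and -0.37 with a median of -0.59, and those that rose lay between 0.33 and 0.99 with a median of 0.61. Changes of over 2-fold numbered 4, all of them lower.

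Seen library by library, 44 of the 47 called names had no overlap between the 5 nano_low and the 5 control values (38 lower and 6 higher), beside 2.59% of all names. The called names were chosen on these same values, so this count is a description and adds no support. Within the exposed group, nano_low 1 was the highest of the 5 libraries in 34 of the 40 names that fell, against 33.9% of all names. For most of the names that fell it was thus the nano_low library nearest to control, and some list counts below are also given without it. Those counts rise where it is left out, except that of patterning and developmental signalling, which stays the same. With control 4 and 5 left out instead, 1 of all names was called, 30s ribosomal protein s8/arp2_g2243. That fit kept nano_low 1, which stood with these controls on the first component. Without nano_low 1, control 4 and control 5 together, 19 names were called. In bulk RNA from whole animals, a smaller share of cells of a type and less RNA per cell cannot be told apart.

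**Figure D1:**
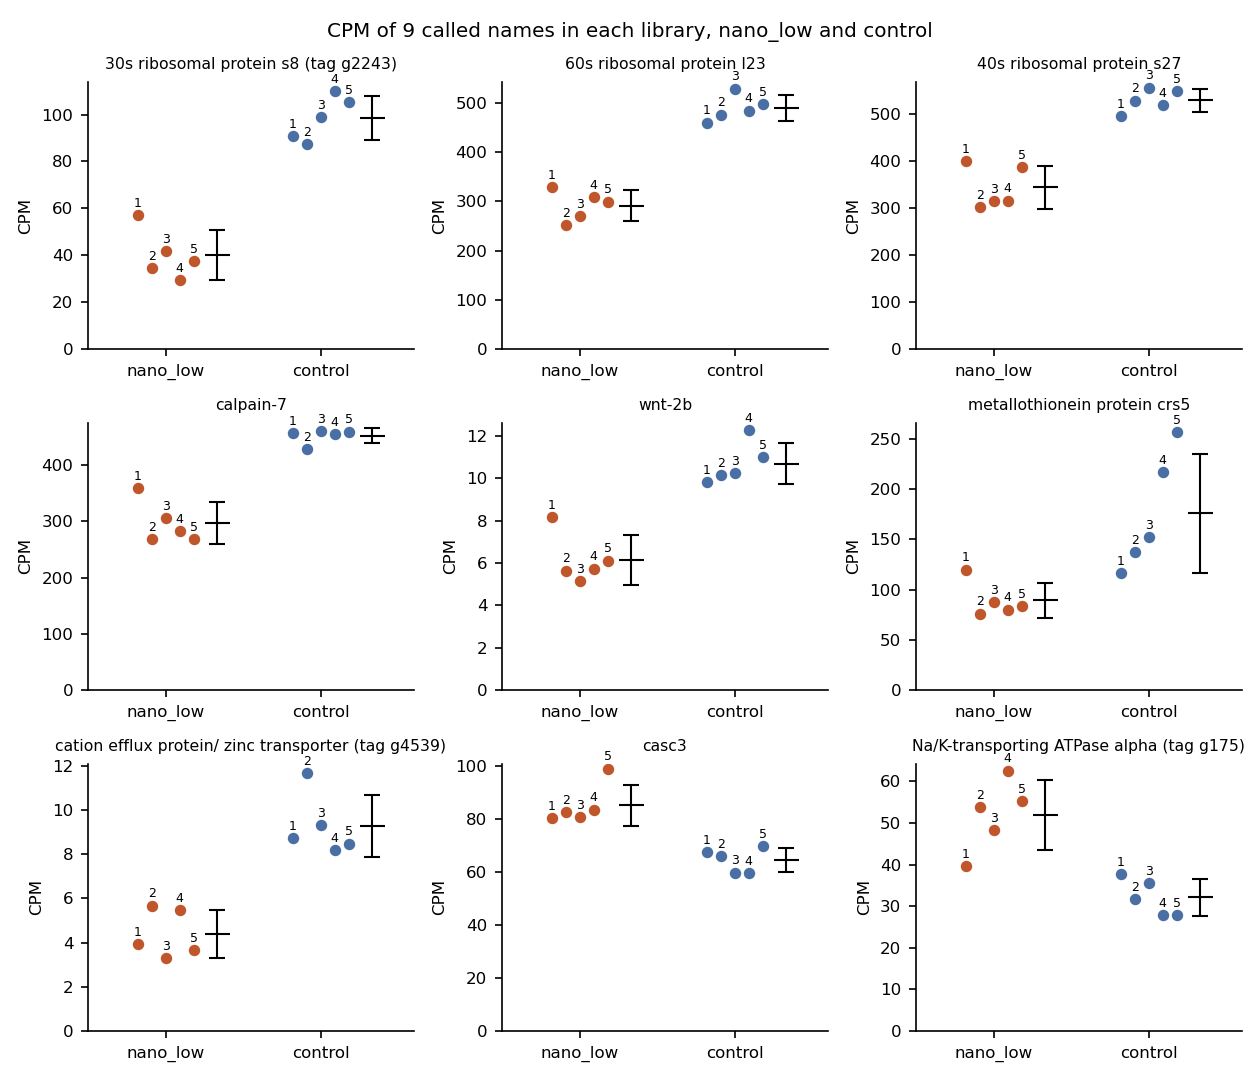
CPM of 9 called names in each library, with nano_low on the left and control on the right of each panel; points are libraries numbered 1 to 5 and the bar beside them is the mean ± SD (n = 5). The groups are separate in 8 of the panels, and in the panel of metallothionein protein crs5 nano_low 1 (120 CPM) lies above control 1 (116 CPM).

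Cytosolic ribosomal proteins made the largest block among the called names. The list holds 109 names of the table, 107 of which were tested, the other 2 having too few counts. In nano_low 17 of the 107 fell and 0 rose, while 0.529% of all names fell and 0.0925% rose. Of the 107, 96 had a log2 fold change below 0, with a list median of -0.38 beside a median of 0.01 over all names. Of all names, 48.8% lay below 0. Without adjustment, 63 of the 107 (58.9%) had p under 0.05 on the lower side, against 7.14% of all names, and 0 did so on the higher side, against 6.94% of all names. The libraries of the groups did not overlap in 35 of the 107, all with nano_low lower, against 1.73% of all names.

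Both subunits were involved. Of 45 names of the 40S subunit, 7 fell (s3a, s14, s15a, s16, a tagged second name for s16, s17 and s27) and the median was -0.35. Of 62 names of the 60S subunit, 10 fell (a tagged l5, l10a, l11, l15, l17, l19, l23, l24, l36a and a tagged l37a) and the median was -0.40. The untagged l37a and l5 were not called, at log2 fold changes of -0.51 (adjusted p = 0.077) and -0.32 (adjusted p = 0.227). Tagged second names of l10a, l11, l15, l19 and s27 were not called either. No test compared the subunits with each other.

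The lowest adjusted p among them belonged to 60s ribosomal protein l23, a protein of the large subunit, which had 329, 251, 270, 309 and 299 CPM in nano_low 1 to 5, against 459, 476, 529, 484 and 497 CPM in control 1 to 5. Every nano_low library lay below every control library, and the spread within each group was small beside the gap (log2 fold change -0.75, SE 0.11, adjusted p = 0.00616). The small-subunit protein 40s ribosomal protein s16 had 341, 253, 273, 263 and 274 CPM in nano_low, against 382, 406, 464, 443 and 414 CPM in control. Nano_low 1 stood above the other 4 exposed libraries here and still below control 1 (log2 fold change -0.59, SE 0.10, adjusted p = 0.0105).

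40s ribosomal protein s27, also of the small subunit, had 400, 303, 315, 316 and 387 CPM in nano_low, against 496, 529, 556, 519 and 550 CPM in control. These groups were separate as well, with nano_low 1 and 5 nearest to control (log2 fold change -0.62, SE 0.11, adjusted p = 0.0137). The tagged name 60s ribosomal protein l37a/arp2_g3347 showed the largest fall of the 17, at 77.5, 51.4, 67.3, 51.6 and 66.8 CPM in nano_low, against 97.5, 101, 115, 127 and 131 CPM in control (log2 fold change -0.86, SE 0.14, adjusted p = 0.0105). Among the more abundant members, 60s ribosomal protein l19 had 1756, 1172, 1427, 1224 and 1427 CPM in nano_low, against 1939, 2011, 2100, 2080 and 2096 CPM in control (log2 fold change -0.55, SE 0.11, adjusted p = 0.0283). Its control libraries were close together, while nano_low 1 was well above nano_low 2 and 4. The smallest called fall was that of 60s ribosomal protein l24, at 408 to 533 CPM in nano_low, against 589 to 669 CPM in control (log2 fold change -0.40, SE 0.09, adjusted p = 0.0427).

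Members that were not called spread more widely. The 2 most negative, the tagged names 40s ribosomal protein s23/arp2_g3298 and ribosomal protein s6/arp2_g2485, had log2 fold changes of -1.81 (SE 0.57) and -1.51 (SE 1.08) and did not pass the test. At the other end 11 members lay above 0, none past the test, from sphaerius sp. apv-2005/ribosomal protein s29e at 0.03 (SE 0.68) to 60s ribosomal protein l19/arp2_g3301 at 0.53 (SE 0.86), a tagged name beside the called l19. Untagged l35 and s24 also lay slightly above 0, at 0.14 (SE 0.14) and 0.13 (SE 0.15). The nearest miss was 40s ribosomal protein s12, whose groups were separate at 375 to 594 CPM in nano_low, against 630 to 904 CPM in control (log2 fold change -0.62, SE 0.14, adjusted p = 0.0505).

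**Figure D2:**
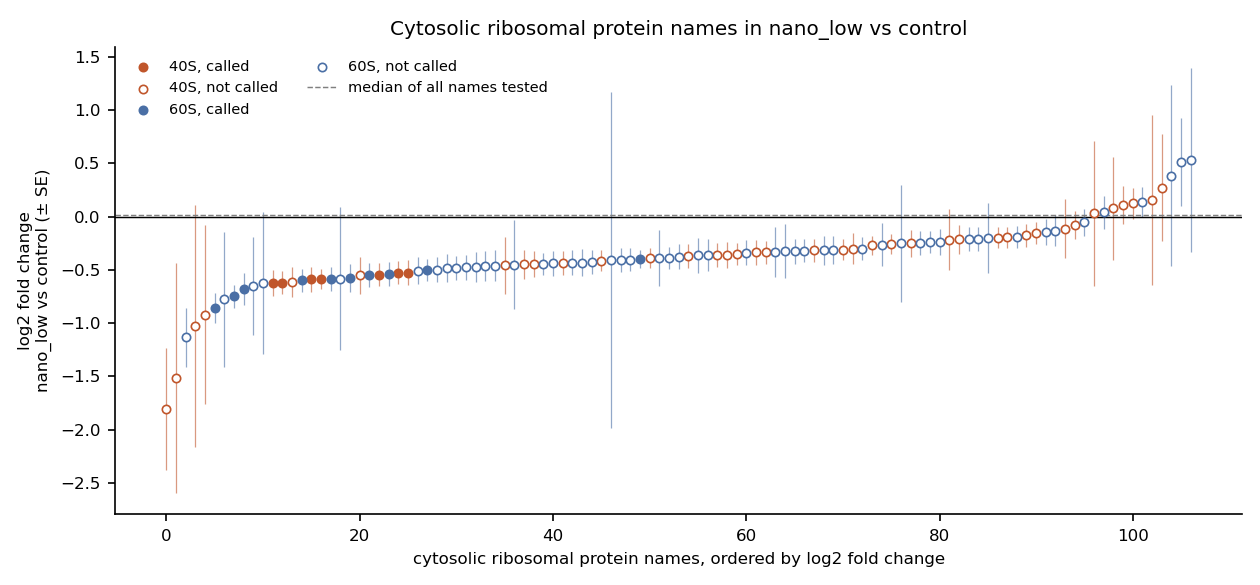
Log2 fold change of nano_low vs control for each of the 107 tested cytosolic ribosomal protein names in order of size, with bars of ± SE, orange for the 40S and blue for the 60S subunit, filled where called. 96 names lie below 0, the 17 called names lie between -0.86 and -0.40, and members that were not called reach from -1.81 to 0.53.

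Summed over the list, cytosolic ribosomal proteins took 72471, 49067, 65506, 55436 and 62288 CPM in nano_low 1 to 5, against 70092, 75670, 78575, 83526 and 83752 CPM in control 1 to 5. The sums overlap because nano_low 1 lay above control 1, and the means were 60954 ± 9040 CPM in nano_low and 78323 ± 5731 CPM in control (SD, n = 5 each). Nano_low 1 was the highest nano_low library in 78 of the 107 members. With nano_low 1 left out of the fit 45 members fell, among 236 calls over all names, with a list median of -0.45. With control 4 and control 5 both left out, 0 passed and the median was -0.30. Without nano_low 1, control 4 and control 5 together, 7 fell and the median was -0.38.

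The other names of the translation machinery held the name with the lowest p of all. 30s ribosomal protein s8/arp2_g2243, named for a protein of the bacterial-type small subunit, had 57.2, 34.5, 41.8, 29.4 and 37.5 CPM in nano_low 1 to 5, against 90.8, 87.5, 98.8, 110 and 105 CPM in control 1 to 5. The highest nano_low library was at 57.2 CPM and the lowest control library at 87.5 CPM (log2 fold change -1.30, SE 0.16, adjusted p = 0.000937). It was called under all 23 alternative settings tried, with a log2 fold change between -1.47 and -1.20. It was the 1 called name of 65 tested mitochondrial and bacterial-type ribosomal proteins, 47 of which had log2 fold changes above 0, with a list median of 0.07.

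Of 96 translation factors and tRNA synthetases, 2 fell and 0 rose, while 0.529% of all names fell and 0.0925% rose. The list median was -0.06. Without nano_low 1, 7 were called, among 236 of all names. Both called names belong to elongation factor 1 beta, which recharges elongation factor 1 alpha with GTP after it has delivered an aminoacyl-tRNA. Elongation factor 1-beta had 415, 342, 369, 333 and 301 CPM in nano_low, against 456, 455, 538, 572 and 584 CPM in control (log2 fold change -0.57, SE 0.11, adjusted p = 0.0226). A tagged second name, elongation factor 1 beta/arp2_g1903, had 23.8, 19.3, 18.1, 14.9 and 17.2 CPM in nano_low, against 28.1, 31.4, 29.5, 35 and 35.2 CPM in control (log2 fold change -0.77, SE 0.16, adjusted p = 0.0277). Both were separate between the groups, with nano_low 1 highest among the exposed libraries.

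Elongation factor 1 alpha itself, at 7522 to 11423 CPM in nano_low, against 8670 to 12277 CPM in control, overlapped widely (log2 fold change -0.14, SE 0.16, adjusted p = 0.698). An initiation factor subunit, eukaryotic translation initiation factor 3 subunit f, and eukaryotic translation elongation factor 1 epsilon-1 came close to the threshold at log2 fold changes of -0.39 (adjusted p = 0.0594) and -0.64 (adjusted p = 0.0762). In both, nano_low 1 overlapped with control.

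Names that handle RNA moved in both directions. U6 snrna-associated sm protein lsm7, a protein of the ring that binds the U6 spliceosomal RNA and takes part in messenger RNA decay, had 18.2, 16.1, 16.1, 13.4 and 16.6 CPM in nano_low, against 21.2, 23.3, 26.7, 23.4 and 24.5 CPM in control (log2 fold change -0.57, SE 0.10, adjusted p = 0.0137). Dna-directed rna polymerase subunit rpb6, a subunit that the nuclear RNA polymerases share, lay at 14 to 17.8 CPM in nano_low, against 19.3 to 22.4 CPM in control (log2 fold change -0.39, SE 0.08, adjusted p = 0.0329). Both fell, with no overlap between the groups. Ribonuclease h/arp2_g1421, an enzyme that cuts RNA paired with DNA, fell further, at 4.51, 4.07, 3.70, 3.91 and 2.46 CPM in nano_low, against 6.26, 6.53, 9.05, 10.8 and 6.08 CPM in control (log2 fold change -1.06, SE 0.21, adjusted p = 0.0271). Counts of this name were low, and its control values ran wider than those of nano_low.

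A pair of RNA-binding names rose instead. Casc3, a core part of the exon junction complex laid on spliced messenger RNA, had 80.2, 82.6, 80.6, 83.5 and 98.9 CPM in nano_low, against 67.3, 66, 59.7, 59.6 and 69.7 CPM in control (log2 fold change 0.40, SE 0.07, adjusted p = 0.0225). Surp and g-patch domain-containing protein, of a family of splicing proteins, had 34, 34, 34.9, 32.2 and 34 CPM in nano_low, against 23.5, 26.3, 25, 24 and 28.9 CPM in control (log2 fold change 0.41, SE 0.08, adjusted p = 0.0277). The 5 nano_low values of the splicing protein were nearly the same, and each lay above the highest control value. In the list of splicing and RNA processing, 2 of 95 names rose, 1 fell and the median was -0.04, with casc3, surp and lsm7 as the called members. Of all names, 0.0925% rose and 0.529% fell. Without nano_low 1, 4 were called, among 236 of all names.

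Both called enzymes of nucleotide metabolism, a grouping made from the called names, fell, as did 40 of all 47 called names. Nucleoside-diphosphate kinase nbr-a/arp2_g1402, which moves phosphate between nucleoside diphosphates and triphosphates, had 59.8, 54.4, 51.6, 51.6 and 53 CPM in nano_low, against 77.7, 77.4, 79.5, 85.5 and 80.3 CPM in control (log2 fold change -0.57, SE 0.11, adjusted p = 0.0225). Inosine triphosphate pyrophosphatase, which clears non-canonical purine nucleotides, had 13 to 17.6 CPM in nano_low, against 19.6 to 26.6 CPM in control (log2 fold change -0.51, SE 0.11, adjusted p = 0.0496). The kinase separated the groups, with nano_low 1 nearest to control.

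Of 21 metal-handling names tested, 2 fell and 0 rose, while 0.529% of all names fell and 0.0925% rose. Without adjustment, 8 had p under 0.05 on the lower side (38.1%, against 7.14% of all names). Of the 21, 15 lay below 0, and the list median was -0.15. The mean level of the list per library, in log2 CPM centred on the mean of all 20 libraries, lay between -0.117 and -0.068 in nano_low and between 0.057 and 0.388 in control, with no overlap. It was 1 of 35 lists examined, and the lists were chosen with earlier results of these data known. The summed CPM of the list did overlap, at 3684, 2808, 2975, 2946 and 2657 CPM in nano_low 1 to 5, against 3732, 3730, 3575, 5106 and 4696 CPM in control 1 to 5, with nano_low 1 above control 3. Nano_low 1 was the highest exposed library in 7 of the 21 names, near the 33.9% of all names.

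Metallothionein protein crs5, named for a copper-binding metallothionein of Saccharomyces cerevisiae, had 120, 76.1, 87.7, 79.9 and 83.5 CPM in nano_low 1 to 5, against 116, 137, 152, 217 and 257 CPM in control 1 to 5. It fell, with nano_low 1 above control 1 and the other 4 exposed libraries below every control (log2 fold change -0.98, SE 0.20, adjusted p = 0.0314). Control 4 and control 5 held the highest values. The log2 fold change was -0.98 with all libraries and between -1.11 and -0.60 over the alternatives, where it was called in 11 of 23.

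Cation efflux protein/ zinc transporter/arp2_g4539, a transporter that moves zinc out of the cytosol, had 3.92, 5.67, 3.29, 5.45 and 3.65 CPM in nano_low, against 8.73, 11.7, 9.31, 8.17 and 8.46 CPM in control. All 5 exposed libraries lay under the lowest control library (log2 fold change -1.07, SE 0.21, adjusted p = 0.0226). An untagged zinc transporter in the list was level, with a log2 fold change of 0.01.

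The 3 ferritin names of the list did not pass the test. The light chain, ferritin 2 light chain, had 184, 192, 171, 203 and 161 CPM in nano_low, against 238, 250, 216, 352 and 291 CPM in control with no overlap (log2 fold change -0.56, SE 0.13, adjusted p = 0.0586). The heavy chain, ferritin, heavy subunit, had 1809, 1011, 1227, 1048 and 962 CPM in nano_low, against 1759, 1643, 1621, 2370 and 2265 CPM in control (log2 fold change -0.67, SE 0.18, adjusted p = 0.0868). In the heavy chain nano_low 1 lay among the control libraries. The ferritin subunit without a chain label overlapped, at 412 to 540 CPM in nano_low, against 462 to 855 CPM in control (log2 fold change -0.41, SE 0.16, adjusted p = 0.264). With nano_low 1 left out, 6 metal-handling names were called, among 236 of all names. Control 4 and 5 held the highest mean levels of the metal-handling list, at 0.388 and 0.249. Without these controls the fit called 1 of all names, which is not in this list.

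**Figure D3:**
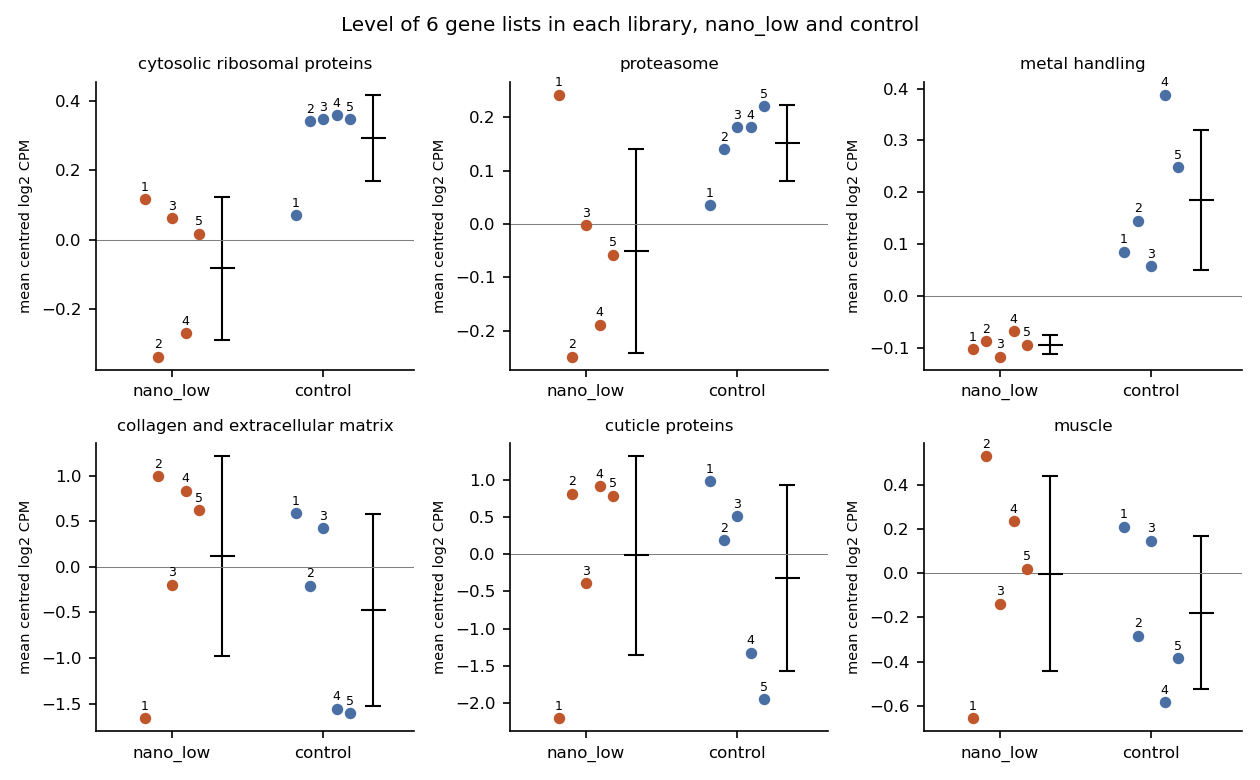
Mean level of 6 gene lists in each library (mean of the members' log2 CPM, each centred on its mean over the 20 libraries), with nano_low left of control; points are libraries numbered 1 to 5 and the bar beside them is the mean ± SD (n = 5). Of these 6 panels, taken from 35 lists, that of metal handling alone shows no overlap. Nano_low 1 lies beside control 4 and 5 at the bottom of the collagen, cuticle and muscle panels and is the highest point of the proteasome panel.

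Signalling names were called in both directions. Wnt-2b, a secreted ligand of the Wnt family that patterns tissues, had 8.16, 5.64, 5.13, 5.73 and 6.12 CPM in nano_low, against 9.81, 10.2, 10.3, 12.3 and 11 CPM in control (log2 fold change -0.79, SE 0.13, adjusted p = 0.0105). The groups did not overlap, and it was called in 20 of the 23 alternatives. Syntenin-1, an adaptor that binds syndecans at the membrane, had 99.1 to 111 CPM in nano_low, against 118 to 157 CPM in control, and fell by a small amount (log2 fold change -0.37, SE 0.08, adjusted p = 0.0496). Growth hormone-inducible soluble protein, at 3.19 to 5.69 CPM in nano_low, against 5.00 to 9.20 CPM in control, also fell, and was 1 of the 3 called names whose groups overlapped (log2 fold change -0.83, SE 0.18, adjusted p = 0.0448).

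The other 3 called names of signalling and transcription rose. Brother of odd with entrails limited/arp2_g9170, named for a Drosophila zinc-finger transcription factor of the odd-skipped family, had 7.57, 5.85, 7.29, 3.84 and 6.66 CPM in nano_low, against 2.83, 3.98, 4.12, 2.51 and 3.23 CPM in control (log2 fold change 0.90, SE 0.20, adjusted p = 0.0441). Nano_low 4 lay inside the control range. Cyclin dependent kinase 19 variant, a kinase of the Mediator module that regulates transcription, had 29.1, 27.3, 38.6, 28.5 and 38.5 CPM in nano_low, against 22.7, 22.4, 18.3, 19.8 and 23.4 CPM in control (log2 fold change 0.61, SE 0.12, adjusted p = 0.0226). E3 ubiquitin-protein ligase mgrn1, a ubiquitin ligase, rose least of all the called names, at 35.5, 35.6, 38.8, 37 and 37.9 CPM in nano_low, against 30.4, 31.3, 29.4, 28.5 and 27.3 CPM in control (log2 fold change 0.33, SE 0.06, adjusted p = 0.0226), though its groups were separate and narrow.

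The list of patterning and developmental signalling held 83 tested names, of which 1 rose, 1 fell and 64 lay above 0, with a median of 0.25. Among all 7564 names, 0.0925% rose, 0.529% fell and 3876 lay above 0. Without adjustment 9 of the 83 had p under 0.05 on the higher side (10.8%, against 6.94% of all names). On the lower side 2 did (2.41%, against 7.14% of all names). With nano_low 1 left out 2 of the list were called, among 236 of all names. Its uncalled members homeobox protein abdominal-a, a segment-identity transcription factor, and zinc finger e-box-binding homeobox were separate and higher, at 1.33 to 2.54 CPM in nano_low, against 0.692 to 1.22 CPM in control (log2 fold change 1.18, SE 0.35, adjusted p = 0.128) and 25.1 to 33.5 CPM in nano_low, against 16.9 to 25.1 CPM in control (log2 fold change 0.47, SE 0.12, adjusted p = 0.0907). Over all names, 0.859% were separate and higher.

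Of the 40 names that fell, 4 are named for cilia, the spindle or small GTPases, a grouping made from the called names. Adp-ribosylation factor protein 13b, of the ADP-ribosylation factor family of small GTPases, lay at 21.3 to 24.6 CPM in nano_low, against 27 to 32.3 CPM in control (log2 fold change -0.40, SE 0.08, adjusted p = 0.0226). Adp-ribosylation factor protein 8b-a, of the same family, had 2.95, 2.76, 2.98, 2.59 and 2.46 CPM in nano_low, against 4.03, 6.01, 3.98, 5.51 and 4.46 CPM in control (log2 fold change -0.81, SE 0.17, adjusted p = 0.0314). Kintoun, which helps assemble the dynein arms of motile cilia before they are shipped, had 49.1, 39.8, 44.5, 41 and 41.4 CPM in nano_low, against 63.8, 63.1, 54.3, 50.4 and 54.3 CPM in control (log2 fold change -0.41, SE 0.09, adjusted p = 0.0441). Mitotic-spindle organizing protein, a part of the complexes that start spindle microtubules, lay at 6.71 to 9.23 CPM in nano_low, against 10.7 to 13.9 CPM in control (log2 fold change -0.58, SE 0.13, adjusted p = 0.0447). All 4 separated the groups. In the list of small GTPases and vesicle traffic 2 of 135 tested names fell, both ADP-ribosylation factors, and 0 rose, with a median of 0.07. Of all names, 0.529% fell and 0.0925% rose. Of the 135, 82 lay above 0, and without adjustment 19 had p under 0.05 on the higher side (14.1%, against 6.94% of all names). On the lower side 7 did (5.19%, against 7.14% of all names). A fit without nano_low 1 called 6 of the list, among 236 of all names.

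Among the remaining names, calpain-7, a calcium-activated type of cysteine protease, had 359, 268, 306, 283 and 269 CPM in nano_low, against 457, 429, 461, 455 and 460 CPM in control (log2 fold change -0.61, SE 0.10, adjusted p = 0.0105). Its control libraries were close together, and it was called in 20 of 23 alternatives. Immediate early response 3-interacting protein, a small protein of the endoplasmic reticulum and Golgi in mammals, had 29.9, 19, 15, 17.3 and 21.4 CPM in nano_low, against 35.7, 35.8, 36, 33.9 and 36 CPM in control (log2 fold change -0.79, SE 0.15, adjusted p = 0.0226). Control values spanned little, while nano_low 1 was far above the other exposed libraries. Atp synthase subunit s protein, a coupling factor of the mitochondrial ATP synthase, lay at 563 to 797 CPM in nano_low, against 839 to 1022 CPM in control (log2 fold change -0.48, SE 0.11, adjusted p = 0.0447), and lysine methyltransferase mettl21d, a protein methyltransferase, at 6.39 to 8.53 CPM in nano_low, against 10.8 to 12.5 CPM in control (log2 fold change -0.57, SE 0.11, adjusted p = 0.0225). Both fell with separate groups.

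On the higher side, a name for the alpha subunit of the sodium/potassium-transporting ATPase (tag arp2_g175), the catalytic part of the pump that sets sodium and potassium gradients, had 39.7, 53.8, 48.4, 62.6 and 55.3 CPM in nano_low, against 37.7, 31.8, 35.6, 27.9 and 27.9 CPM in control (log2 fold change 0.69, SE 0.12, adjusted p = 0.0207). Nano_low 1 was the lowest exposed library and control 1 the highest control, and these groups did not overlap. Methylcrotonoyl-coa carboxylase alpha chain, which works in the breakdown of leucine, had the largest rise, at 5.80, 8.58, 8.52, 7.62 and 8.07 CPM in nano_low, against 5.30, 3.94, 3.14, 2.51 and 4.62 CPM in control (log2 fold change 0.99, SE 0.22, adjusted p = 0.0447). It was the 1 called name of 31 in amino acid breakdown, whose median was 0.00.

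A pair of called names carry no function. Conserved protein/arp2_g6938 showed the largest fall of all, at 1.77, 1.78, 1.64, 0.280 and 0.595 CPM in nano_low, against 4.94, 5.10, 4.09, 3.15 and 3.54 CPM in control (log2 fold change -1.78, SE 0.40, adjusted p = 0.0447), on few counts. Hypothetical protein/arp2_g25293 had 3.49 to 4.17 CPM in nano_low, against 5.18 to 7.31 CPM in control (log2 fold change -0.71, SE 0.15, adjusted p = 0.0314). Just outside the threshold stood the tagged ankyrin/arp2_g7825, at a log2 fold change of -0.68 (adjusted p = 0.0506), a rhodopsin-class receptor, gpr5ht4, at -0.43 (adjusted p = 0.0508), and, on the higher side, core histone h2a/h2b/h3/h4/arp2_g656 at 0.55 (adjusted p = 0.0508) and ski oncogene at 0.52 (adjusted p = 0.0508).

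Of 26 proteasome names, subunits of the machine that degrades ubiquitin-tagged proteins, 0 were called. Without adjustment 12 had p under 0.05 on the lower side (46.2%, against 7.14% of all names), 23 lay below 0 (48.8% of all names did), and the median was -0.22. Proteasome inhibitor pi31 subunit had 21.1, 15.7, 19.5, 16.6 and 16.8 CPM in nano_low, against 22.2, 21.9, 21.5, 27.1 and 27.7 CPM in control (log2 fold change -0.43, SE 0.11, adjusted p = 0.077). Proteasome subunit alpha type-6 and proteasome subunit beta type-3 had log2 fold changes of -0.35 and -0.34 (adjusted p = 0.077 and 0.0969). Nano_low 1 was the highest exposed library in 24 of the 26 names, and its mean level for the list, 0.242, lay above all 5 controls. With that library left out 8 proteasome names were called, in a fit that called 236 of all names, and the median was -0.31. A fit without control 4 and 5 called 1 of all names, which is not a proteasome name.

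Antioxidant names, which remove peroxides and superoxide, numbered 29, with 0 called, 8 at unadjusted p under 0.05 lower (27.6%, against 7.14% of all names) and 2 higher (6.9%, against 6.94%), and a median of -0.11. Methionine-r-sulfoxide reductase, which repairs oxidised methionine, had 7.89, 9.89, 12.4, 7.62 and 7.47 CPM in nano_low, against 14.2, 14.2, 18.6, 17.6 and 13.9 CPM in control (log2 fold change -0.80, SE 0.19, adjusted p = 0.0558). Thioredoxin, mitochondrial had 48.7 to 62 CPM in nano_low, against 63.4 to 94.4 CPM in control (log2 fold change -0.37, SE 0.10, adjusted p = 0.0849) and branchiostoma peroxiredoxin v protein/arp2_g2142 had 19.9 to 32.1 CPM in nano_low, against 35 to 50.6 CPM in control (log2 fold change -0.62, SE 0.17, adjusted p = 0.0929). These 3 of the 29 names separated the groups with nano_low lower, against 1.73% of all names, without passing the test. With nano_low 1 left out 5 antioxidant names were called, among 236 of all names. A fit without control 4 and 5 called 1 of all names, which is not an antioxidant name. The most abundant name of the table, the copper-zinc superoxide dismutase, had 56782, 154040, 169630, 205730 and 141040 CPM in nano_low, against 170960, 118630, 93928, 57516 and 40072 CPM in control. Nano_low 1 and control 4 and 5 held the lowest values (log2 fold change 0.60, SE 0.33, adjusted p = 0.427). Glutathione peroxidase 6, which reduces peroxides with glutathione, had 763 to 1125 CPM in nano_low, against 783 to 1110 CPM in control (log2 fold change -0.05, SE 0.13, adjusted p = 0.89), and peroxiredoxin-6 had a log2 fold change of -0.44 (adjusted p = 0.119).

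Heat shock proteins and chaperones showed 0 calls in 37 names, with a median of -0.02. Heat shock 70 kda protein cognate had 2841 to 3440 CPM in nano_low, against 2615 to 3362 CPM in control (log2 fold change 0.07, SE 0.11, adjusted p = 0.77), and heat shock protein hsp 90-alpha had 1137 to 1313 CPM in nano_low, against 1078 to 1263 CPM in control (log2 fold change 0.06, SE 0.10, adjusted p = 0.804). Cytochrome P450 names, which oxidise lipophilic compounds, had 0 calls in 27 and a median of -0.18. Phase II conjugation had 0 calls in 31 names and a median of 0.04. There glutathione s-transferase s1 lay lower at 237 to 322 CPM in nano_low, against 326 to 411 CPM in control (log2 fold change -0.30, SE 0.12, adjusted p = 0.286), while glucosyl/glucuronosyl transferases/arp2_g27 lay higher at 12.1, 12.9, 9.35, 21.7 and 18.1 CPM in nano_low, against 5.48, 2.31, 8.94, 3.69 and 9.08 CPM in control (log2 fold change 1.34, SE 0.38, adjusted p = 0.116). ABC transporters had 0 calls in 17 names and a median of 0.01.

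Histones had 0 calls in 17, with members on both sides. Core histone h2a/h2b/h3/h4/arp2_g656 had 87.4, 68.6, 90.2, 83 and 84.8 CPM in nano_low, against 54.9, 65.1, 57.9, 47.4 and 57.3 CPM in control, while histone h2a type had 130, 107, 123, 109 and 110 CPM in nano_low, against 143, 146, 152, 186 and 157 CPM in control (log2 fold change -0.44, SE 0.11, adjusted p = 0.0703). Both separated the groups, in opposite directions, and histone h2b type 1-d was separate and lower as well (log2 fold change -0.36, SE 0.11, adjusted p = 0.156). Of the 17 histones, 1 was separate and higher (0.859% of all names were), and 2 were separate and lower (1.73% of all names were). Oxidative phosphorylation had 1 called name of 69, the coupling factor named above, and a median of -0.06. Its uncalled nadh-ubiquinone oxidoreductase chain 4l had 50.8, 153, 49.9, 99.2 and 48.1 CPM in nano_low, against 230, 170, 229, 148 and 108 CPM in control (log2 fold change -1.14, SE 0.33, adjusted p = 0.119), and nadh dehydrogenase [ubiquinone] 1 subunit c2 lay at 9.30 to 11.4 CPM in nano_low, against 11.7 to 19.4 CPM in control (log2 fold change -0.62, SE 0.20, adjusted p = 0.155).

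Cuticle, collagen and muscle names varied widely between libraries of 1 group. Of 45 collagen and extracellular matrix names 0 were called, although 40 lay above 0, with a median of 0.41. Collagen alpha-1(ii) chain had 433, 2936, 1103, 2435 and 2110 CPM in nano_low, against 2022, 1438, 1772, 1085 and 537 CPM in control (log2 fold change 0.40, SE 0.41, adjusted p = 0.677). Nano_low 1 and control 5 were the lowest of the 10. Laminin subunit alpha-3, of the sheet beneath epithelia, had 305 to 575 CPM in nano_low, against 308 to 369 CPM in control (log2 fold change 0.40, SE 0.14, adjusted p = 0.226). Cuticle proteins had 0 calls in 42 names and a median of 0.34. The name cuticle protein lay at 72.1 to 3946 CPM in nano_low, against 119 to 3514 CPM in control. With control 4 and 5 left out and nano_low 1 kept, the median was -0.09, and that of the collagen list was 0.13.

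Cuticular protein analogous to peritrophins 1-a, of the cuticle proteins related to the gut lining, had the smallest p of that list, at 25.5, 60.3, 36.7, 118 and 79.2 CPM in nano_low, against 19, 6.17, 37.4, 18.1 and 31 CPM in control (log2 fold change 1.52, SE 0.50, adjusted p = 0.177). Muscle names had 0 calls in 30 and a median of 0.23, with 5 at an unadjusted p under 0.05 higher (16.7%, against 6.94% of all names) and 1 lower, and actin, alpha skeletal muscle had 6248 to 13621 CPM in nano_low, against 7488 to 12931 CPM in control (log2 fold change 0.20, SE 0.21, adjusted p = 0.682). In chitin turnover 0 of 29 were called and the median was 0.00. Chitin deacetylase 1 precursor, which modifies chitin as cuticle forms, had 320, 1775, 1161, 3163 and 3244 CPM in nano_low, against 1115, 1134, 1285, 527 and 380 CPM in control (log2 fold change 1.12, SE 0.52, adjusted p = 0.348), and brain chitinase and chia had 1873 to 3077 CPM in nano_low, against 2490 to 4546 CPM in control (log2 fold change -0.45, SE 0.18, adjusted p = 0.297). The same 3 libraries, nano_low 1 and control 4 and 5, held the 3 lowest values of the deacetylase.

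Digestion and reproduction gave no called name. Of 26 digestive carbohydrases and lipases, 6 had an unadjusted p under 0.05 on the lower side (23.1%, against 7.14% of all names) and the median was -0.28. With control 4 and 5 left out and nano_low 1 kept, this median was -0.05. Alpha-amylase, which digests starch, had 2370, 2369, 2347, 1928 and 1848 CPM in nano_low, against 2472, 2567, 2164, 4074 and 3838 CPM in control (log2 fold change -0.48, SE 0.18, adjusted p = 0.239), with control 4 and control 5 highest. Hepatic triacylglycerol lipase lay at 78.5 to 168 CPM in nano_low, against 161 to 354 CPM in control (log2 fold change -0.84, SE 0.27, adjusted p = 0.157). Digestive proteases had 0 calls in 50 names and a median of -0.05, with chymotrypsin bi precursor at a log2 fold change of -0.43 (adjusted p = 0.317). The 4 yolk names had a median of -0.40 and 0 calls. Vitellogenin-1 precursor, the main yolk protein, had 60515, 27938, 45783, 13469 and 30622 CPM in nano_low, against 26203, 50427, 32252, 77643 and 49577 CPM in control (log2 fold change -0.40, SE 0.49, adjusted p = 0.715).

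Of 7 names of hemoglobins and other globins, neuroglobin among them, 0 were called. Hemoglobins are the oxygen carriers that make Daphnia red in poor oxygen. Di-domain hemoglobin precursor had 2175, 3874, 4125, 3781 and 3990 CPM in nano_low, against 3391, 3929, 3983, 3565 and 2839 CPM in control (log2 fold change 0.02, SE 0.23, adjusted p = 0.971), and nano_low 1 was far below the other 4 exposed libraries. Globin/arp2_g2285 had 671, 1219, 913, 1008 and 1265 CPM in nano_low, against 713, 899, 807, 335 and 491 CPM in control (log2 fold change 0.65, SE 0.26, adjusted p = 0.293). Hormone signalling by ecdysteroids and juvenoids, which times moulting and brood production, had 0 calls in 34 names and a median of 0.22, with 5 at an unadjusted p under 0.05 higher (14.7%, against 6.94% of all names) and 1 lower. Juvenile hormone resistance protein had 15.4 to 24.7 CPM in nano_low, against 13.8 to 18.4 CPM in control (log2 fold change 0.44, SE 0.15, adjusted p = 0.219), and nuclear receptor subfamily 1 group d member had 75.1, 226, 119, 232 and 197 CPM in nano_low, against 81.6, 112, 127, 60.8 and 56.3 CPM in control (log2 fold change 0.95, SE 0.35, adjusted p = 0.241). Ecdysis triggering hormone receptor, of the peptide that triggers shedding of the cuticle, varied by orders of magnitude among libraries of 1 group, at 1.29 to 4317 CPM in nano_low, against 1.14 to 1587 CPM in control (log2 fold change 1.45, SE 1.84, adjusted p = 0.732).

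Lists of innate immunity (43 names), neural transmission (84), germline and oogenesis (14), fatty acid and lipid metabolism (83), glycolysis and citrate cycle (31), peritrophic matrix and mucins (10) and eye and phototransduction (21) held 0 called names. Their medians lay between -0.08 and 0.17. In the eye list 5 of 21 names had an unadjusted p under 0.05 on the lower side (23.8%, against 7.14% of all names) and 2 on the higher side, while 12 lay above 0. Its arrestin, phosrestin i arrestin b arrestin, which shuts off rhodopsin, had 109, 90.6, 67.9, 77.9 and 75.6 CPM in nano_low, against 119, 118, 102, 229 and 178 CPM in control (log2 fold change -0.82, SE 0.21, adjusted p = 0.0786). DNA replication and cell cycle had 1 call in 68 names, the spindle name above, and a median of -0.05. Ion pumps had 1 call in 29, the sodium pump subunit, and a median of 0.20. Ubiquitin ligases and conjugating enzymes had 1 call in 116, the ligase mgrn1, and a median of -0.01. A tagged name that was not called, vacuolar protein sorting-associated protein vps13d/arp2_g6355, had 0, 0, 0.205, 0 and 0 CPM in nano_low, against 0.602, 3.39, 5.98, 1.37 and 1.54 CPM in control (adjusted p = 0.0709). It was at 0 in 4 nano_low libraries and in no control library.

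The lower polymer exposure was next set against the higher one, at a 10-fold step in particle number, in a direct test. Of 7564 names, 0 were called by edgeR's quasi-likelihood test in nano_low against nano_high (0%), 511 had an unadjusted p under 0.05 (6.76%), and DESeq2's Wald test called 4. For the 40 names that fell in nano_low the log2 difference nano_low minus nano_high lay between -0.13 and 0.55 with a median of 0.06, and for the 7 that rose between -0.50 and 0.02 with a median of -0.09. The lowest adjusted p among these 47 was 0.644. The 95% interval of this difference, not adjusted for the number of names, had a median width of 0.48 for the names that fell. It left out 0 in 5 of these 40 names and in 1 of the 7 that rose, none of which passed the adjusted test.

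Against control, the 40 names that fell had a median log2 fold change of -0.59 in nano_low, -0.68 in nano_high and -0.50 in silica, and the 7 that rose had medians of 0.61, 0.78 and 0.34. The 3 comparisons share the 5 control libraries, and the names were chosen by their value in nano_low, so the side-by-side values are no independent evidence of a shared change. For 30s ribosomal protein s8/arp2_g2243 the log2 fold change was -1.30 in nano_low, -1.73 in nano_high and -0.65 in silica. Wnt-2b stood at -0.79 in nano_low, -1.11 in nano_high and -0.53 in silica. Brother of odd with entrails limited/arp2_g9170 stood at 0.90, 1.40 and 0.58 in the same order, and the difference nano_low minus nano_high was -0.50 (95% interval -0.90 to -0.09, adjusted p = 0.662).

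60s ribosomal protein l23 differed little among the exposures, at -0.75 in nano_low, -0.77 in nano_high and -0.71 in silica, with an interval of the difference from nano_high of -0.21 to 0.24. The list medians of cytosolic ribosomal proteins against control were -0.38 in nano_low, -0.35 in nano_high and -0.45 in silica, and 17, 40 and 28 of the 107 fell. Over all names, nano_high had 761 calls (10.1%), 391 higher (5.17%) and 370 lower (4.89%), with 1878 at an unadjusted p under 0.05 (24.8%). Nano_high library totals ran from 39087882 to 95906857 counts, against 9689064 to 40227246 in nano_low and 11918440 to 26562258 in control. How far depth bears on the numbers of calls was not tested. Silica had 53 calls (0.701%), 11 higher (0.145%) and 42 lower (0.555%), with 1754 at an unadjusted p under 0.05 (23.2%), and nano_low had 1065 at that level (14.1%). Metal-handling medians were -0.15 in nano_low, -0.13 in nano_high and -0.18 in silica. Metallothionein protein crs5 was at -0.98 in nano_low, -1.23 in nano_high and -0.80 in silica.

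Among names of smallest p in the direct test of the polymer levels, cyclin-t2, a partner of the kinase that releases paused RNA polymerase, was lower in nano_low than in nano_high by a log2 difference of -0.35 (SE 0.08, adjusted p = 0.521). La-related protein also lay lower in nano_low, at -0.45 (SE 0.10), and integral membrane efflux protein efpa higher, at 0.79 (SE 0.18). None passed the test.

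Set against silica, at a different material and a different level, nano_low had 0 called names by edgeR (0%), 431 at an unadjusted p under 0.05 (5.7%), and 8 called by DESeq2. Material and level cannot be told apart in this comparison. The smallest p belonged to adp-ribosylation factor protein 8b-a, whose log2 fold change against control was -0.81 in nano_low and 0.04 in silica, a difference nano_low minus silica of -0.85 (95% interval -1.21 to -0.50, adjusted p = 0.389). The zinc transporter cation efflux protein/ zinc transporter/arp2_g4539 stood at -1.07 in nano_low and -0.20 in silica against control (difference -0.87, 95% interval -1.31 to -0.42, adjusted p = 0.389). Notch/arp2_g5857, a tagged name for the Notch receptor, was higher in nano_low than in silica by 1.19 (SE 0.28), ras-related protein ral-a, a small GTPase of exocytosis, by 0.36 (SE 0.08), and serine/threonine-protein phosphatase 4 catalytic subunit was lower in nano_low, at -1.66 (SE 0.40). None of these passed the test.

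**Figure D4:**
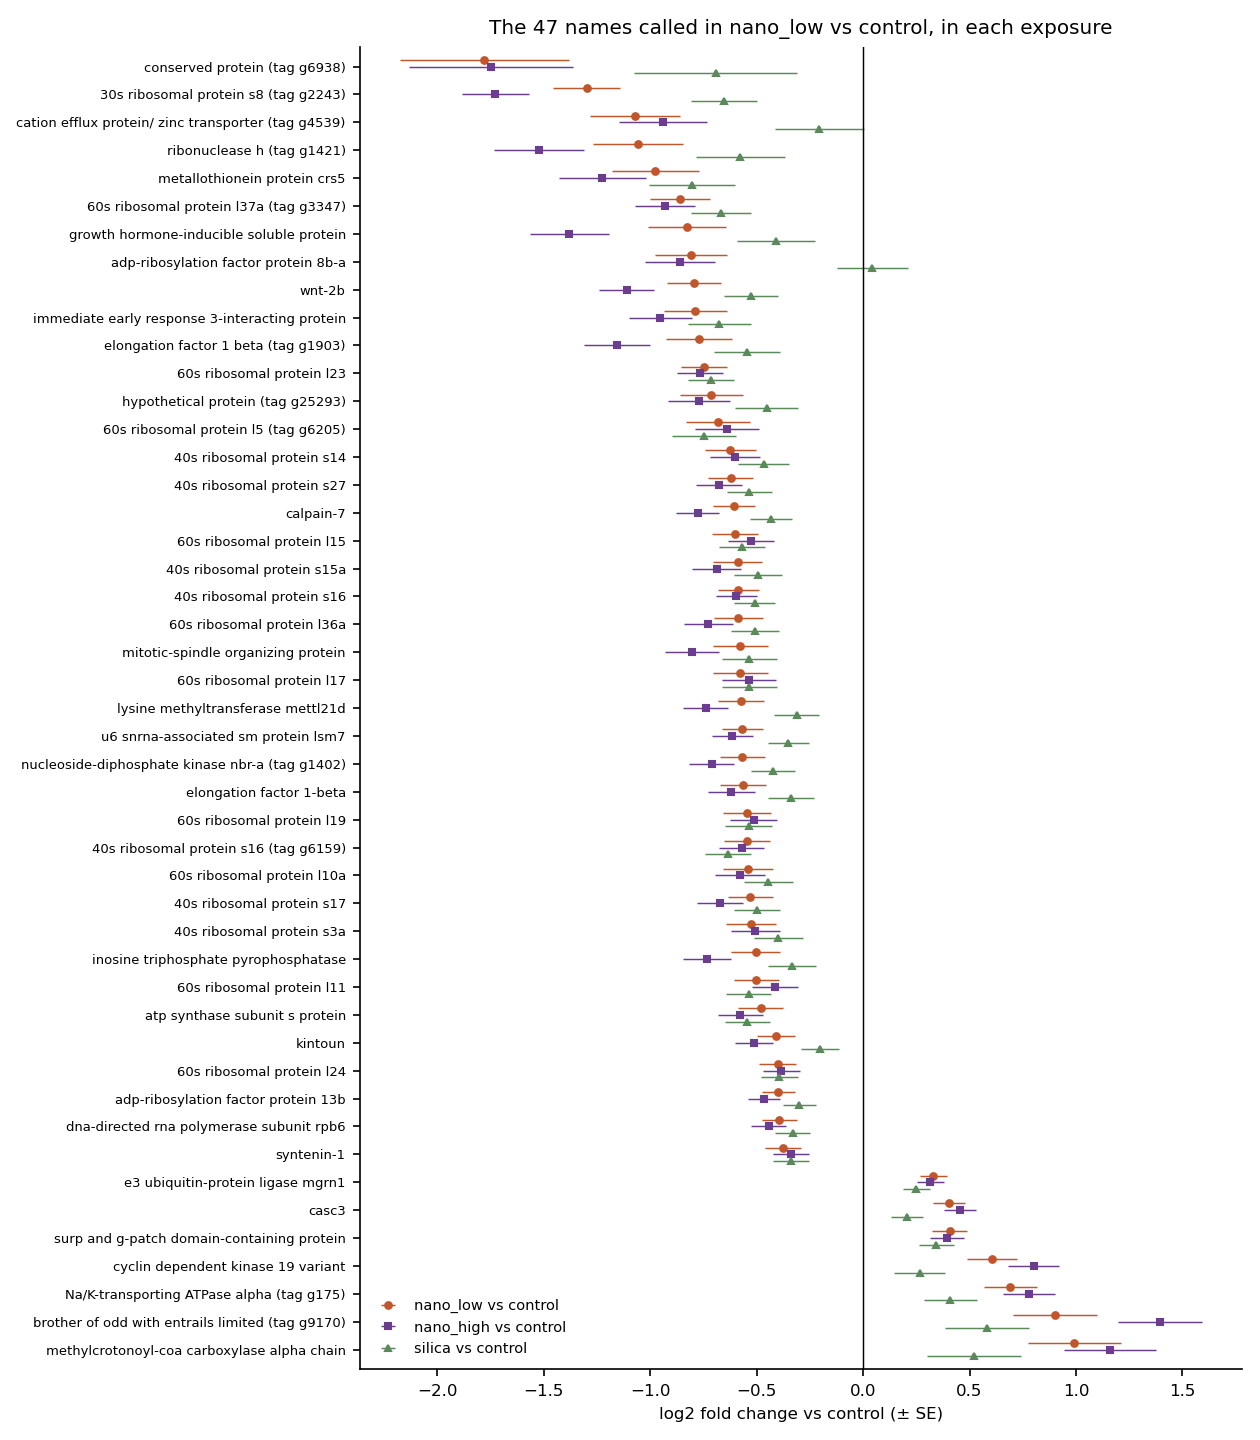
Log2 fold change against control, with bars of ± SE, of the 47 names called in nano_low, for nano_low, nano_high and silica from top to bottom within each name; the 3 comparisons share the control libraries. Names that fell in nano_low have medians of -0.59, -0.68 and -0.50 in that order, and the silica value of adp-ribosylation factor protein 8b-a lies at 0.04.

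How many names were called turned on single libraries. With nano_low 1 left out 236 names passed, among them all 47. Leaving out nano_low 2, 3, 4 or 5 left 9, 12, 12 and 13 names, and leaving out control 2, 3, 4 or 5 left 23, 11, 8 and 10, while 46 passed without control 1. With the libraries of the 2 groups alone in the fit 3 names passed, and with scaling by library totals alone 1 did. In all 23 alternatives each of the 47 kept its direction. The 47 were chosen on these same counts, so this is a description and adds no support. The called names that held most often were 30s ribosomal protein s8/arp2_g2243 (23 of 23), 60s ribosomal protein l23 (21), and 40s ribosomal protein s16, 60s ribosomal protein l37a/arp2_g3347, calpain-7, lsm7 and wnt-2b (20 each).

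**Figure D5:**
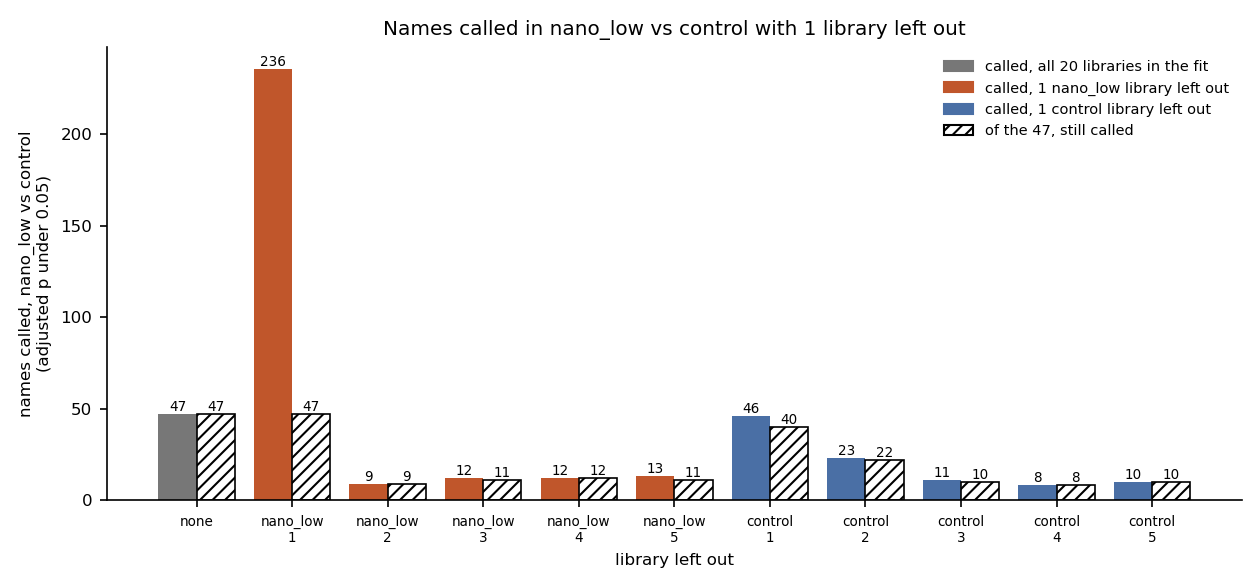
Number of names called in nano_low vs control (adjusted p under 0.05) with all libraries and with each of the 10 libraries left out in turn; solid bars count all called names and hatched bars those of the 47 that were still called. The count is 236 without nano_low 1 and between 8 and 46 without any other single library.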

How the data were processed

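RNA-seq of whole Daphnia magna was analysed in 20 libraries, 5 each of nano_low, nano_high, control and silica, made with a stranded poly-A kit, per the labels' protocols. The values are estimated counts per protein description that the authors obtained with Salmon 0.12.0 and R 3.4.3, per the submitters' processing notes. The deposited table is called normalized, but its library totals differ widely, so it was treated as estimated counts and rounded to whole numbers. If the authors had scaled the values, the count model's error would be misjudged. All columns matched a sample (0 did not). The 7784 names carry no coordinates or lengths, and 0 matched the RefSeq gene table, so neither positions, sequences nor levels per length are given.

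The test took the 7564 names that reached 1 in 5 or more libraries and left out 220. EdgeR 4.0.16 in R 4.3.3 fitted a quasi-likelihood model with TMM scaling to the 4 groups together, which share 1 estimate of spread, and p-values were adjusted over all names by Benjamini-Hochberg to 0.05, two-sided. CPM are per 1000000 of the TMM-scaled total, log2 CPM use a prior count of 2, and fold changes are nano_low over the group it is set against, with 95% intervals. No library duplicated another within nano_low or within control (20 pairs compared, 0 identical). Other pairs were not compared.

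Alternatives were RLE scaling, library totals alone, no filter, a minimum of 10, DESeq2 1.42.0, limma 3.58.1 (voom), a robust prior, only the compared groups, the first principal component as covariate, the most abundant name left out, a replicate block and leaving out each library. Leaving out control 4 and 5, with or without nano_low 1, was chosen after seeing the data. The scripts were tested on simulated data. The lists and comparisons were chosen with earlier results of these data known, and list patterns were corrected after the names were read. Named are all called names, the 10 of smallest p beyond them, the called, the 4 smallest-p and the 4 most abundant members of each list, and the 10 of smallest p against nano_high and against silica, of which the text gives a part.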

Additional observations from a re-analysis of the deposited data

Results flagged for a closer look

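In 14 of 222 sets of 5 libraries examined, 1 library stood apart from the other 4 of its group, by a gap of more than 0.71 of the group's range (Dixon's criterion). Chance gives such a gap in about 1 in 20 sets. Nano_low 1 was the library in 4 of them. It had 340.6 CPM of 40s ribosomal protein s16, with the other nano_low libraries at 253.3 to 274.4 CPM, and 119.8 CPM of metallothionein protein crs5, with the others at 76.06 to 87.7 CPM. It was lowest for di-domain hemoglobin precursor, at 2175 CPM with the others at 3781 to 4125 CPM, and for juvenile hormone resistance protein, at 15.4 CPM with the others at 22.36 to 24.66 CPM.

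Other nano_low libraries stood apart in 5 sets. Nano_low 5 had 98.87 CPM of casc3, above the others at 80.18 to 83.45 CPM, and 61.11 CPM of cyclin-t2, above 57.38 to 58.29 CPM. Nano_low 3 had 21.36 CPM of la-related protein, below 24.64 to 25.74 CPM, and 0.2054 CPM of the tagged vps13d name, where the others were at 0. Nano_low 4 had 1125 CPM of glutathione peroxidase 6, above 762.9 to 830.6 CPM.

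Control libraries stood apart in the remaining 5. Control 2 had 428.7 CPM of calpain-7, below 455 to 461 CPM. Control 4 had 33.93 CPM of immediate early response 3-interacting protein, below 35.69 to 36.02 CPM, and 1.216 CPM of homeobox protein abdominal-a, above 0.6925 to 0.8393 CPM. Control 3 had 94.4 CPM of mitochondrial thioredoxin, above 63.4 to 72.28 CPM, and control 5 had 354.3 CPM of hepatic triacylglycerol lipase, above 161.1 to 189.8 CPM.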

How the results depend on the processing

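The direction of all 47 called names held in each of the 23 alternatives, while their number did not. Since the 47 were chosen on these same counts, their constant direction adds no support. Against 47 called names in nano_low versus control (7 higher, 40 lower, 17 cytosolic ribosomal), there was 1 with library totals alone (0 higher, 1 lower, 0 ribosomal), 227 with DESeq2 (68, 159 and 43), 71 with limma-voom (11 higher), 3 with only these groups in the fit (0, 3 and 1), 187 with the first principal component as covariate (49, 138 and 35), 19 without nano_low 1, control 4 and control 5 (1, 18 and 7), and 1 without control 4 and control 5 (0, 1 and 0). Leaving out 1 library at a time gave 8 to 236 called names, with 0 to 65 higher, 8 to 171 lower and 3 to 45 ribosomal, the upper end being without nano_low 1. The other settings gave 44 to 56. Beyond leaving libraries out, the cause of these shifts was not tested.

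With replicate numbers as a block, 13 names were called (1 higher, 12 lower, 4 ribosomal). The deviations of same-numbered nano_low and control libraries correlated between -0.615 and 0.0768, and 0 of 5 matched best at their own number. These correlations show no sign of pairing. They take all names together, and the first principal component held 38.94% of the variance, so a smaller shared effect could go unseen.

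Against nano_high, 4 names were called by DESeq2 and 0 by limma-voom. Against silica, 8 were called by DESeq2, 4 with the component as covariate and 0 by limma-voom. Leaving out a library gave 0 to 0 in both. Among values of single names over all alternatives, 499 lost their call, 110 gained one and 0 called values changed sign. Depth limits names of a few counts, and 5 libraries a group limit small changes.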
